A study of Mus musculus with 9 samples.

Results

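The genes of the migrating muscle precursors were examined in whole-forelimb-bud chromatin through 9 members, Pax3, Pax7, Lbx1, Met, Myf5, Myf6, Myod1, Six4 and Eya1, out of 21851 protein-coding genes on assembled chromosomes (GENCODE M21, GRCm38/mm10). They were chosen as known genes of this cell type. For each member, the peaks of 3 lists were taken within the gene span and 20 kb on each side. These windows together spanned 0.795 Mb, with the overlapping Myf5 and Myf6 windows counted once, and held 6 peaks of the 25096 in the WT list, 12 of the 32085 in the Shh-/- list and 16 of the 34641 in the Shh-/-;Gli3-/- list.

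The peaks mark H3K27ac, the acetylated lysine 27 of histone H3 found at active promoters and enhancers, measured by MicroChIP-seq, a chromatin immunoprecipitation for small cell numbers. WT embryos were compared with Shh-/- embryos, which carried the Shh tm1amc null allele and lack the Sonic hedgehog (SHH) ligand. They were also compared with Shh-/-;Gli3-/- embryos, which in addition carried the Gli3 Xt-J null allele and lack the GLI3 repressor. The methods give the WT embryos as littermates of the Shh-/-;Gli3-/- embryos, and do not state whether the Shh-/- embryos shared their litters. Each genotype had 2 H3K27ac libraries and 1 input, each immunoprecipitation used the forelimb buds of 1 embryo at E10.5 (33 to 34 somites), and a single peak list stood for each genotype. No list gave values per replicate, so the replicate error of every difference described here is unknown. The titles gave the genotypes, whereas a genotype entry reading wild type was attached to all libraries. The strain background is mixed per the labels, and both null alleles were kept on Swiss Webster per the methods. Both null alleles act in every cell of the embryo, somites included.

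Limb muscle does not arise in the limb bud. Precursors that express the paired-box factor PAX3 leave the ventrolateral lip of the somite, a step that requires the receptor MET and its ligand HGF, and migrate into the bud under the control of the homeobox factor LBX1. Proteins of the Six4 and Eya1 families act upstream of Pax3 and of the myogenic regulatory factors MYF5, MYOD1 and MYF6, which commit the cells to muscle, and PAX7 marks later muscle progenitors. Muscle precursors are a minority of the cells of the bud, most of which are lateral plate mesenchyme. In such bulk chromatin, fewer cells of a type and less acetylation per cell cannot be told apart.

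The widest distal peaks of at least 200 bp without an exon show where acetylation was called beside 4 of the members. For each, 300 bases around the position of the largest caller statistic are printed from GRCm38/mm10 on the minus strand, the coding strand of all 4 genes. Capitals mark E-boxes (CANNTG), the letters bound by myogenic factors among many other proteins. The Pax3 bases (chr1:78193175-78193474) come from its Shh-/- intron peak, the Pax7 bases (chr4:139747575-139747874) from its Shh-/-;Gli3-/- intron peak, the Lbx1 bases (chr19:45231025-45231324) from a Shh-/-;Gli3-/- peak downstream of the gene, and the Eya1 bases (chr1:14185825-14186124) from the Shh-/-;Gli3-/- peak over an intronic region found in all 3 lists.
Pax3: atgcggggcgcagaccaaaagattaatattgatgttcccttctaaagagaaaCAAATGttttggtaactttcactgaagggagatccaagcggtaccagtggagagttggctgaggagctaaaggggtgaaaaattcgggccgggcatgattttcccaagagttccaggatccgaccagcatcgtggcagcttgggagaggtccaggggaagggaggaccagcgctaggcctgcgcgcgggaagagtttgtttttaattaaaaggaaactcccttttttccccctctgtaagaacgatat
Pax7: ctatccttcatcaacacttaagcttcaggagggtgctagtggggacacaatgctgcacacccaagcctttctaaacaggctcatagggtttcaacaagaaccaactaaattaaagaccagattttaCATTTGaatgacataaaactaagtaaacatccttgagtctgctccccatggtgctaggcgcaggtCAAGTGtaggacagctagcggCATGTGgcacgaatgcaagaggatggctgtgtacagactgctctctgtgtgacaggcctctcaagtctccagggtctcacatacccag
Lbx1: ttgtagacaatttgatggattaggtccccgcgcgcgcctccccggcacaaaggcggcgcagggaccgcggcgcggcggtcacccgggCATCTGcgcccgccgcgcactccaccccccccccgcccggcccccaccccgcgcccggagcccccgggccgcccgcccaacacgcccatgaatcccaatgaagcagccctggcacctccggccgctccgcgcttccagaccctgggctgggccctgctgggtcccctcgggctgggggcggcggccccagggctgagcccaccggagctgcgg
Eya1: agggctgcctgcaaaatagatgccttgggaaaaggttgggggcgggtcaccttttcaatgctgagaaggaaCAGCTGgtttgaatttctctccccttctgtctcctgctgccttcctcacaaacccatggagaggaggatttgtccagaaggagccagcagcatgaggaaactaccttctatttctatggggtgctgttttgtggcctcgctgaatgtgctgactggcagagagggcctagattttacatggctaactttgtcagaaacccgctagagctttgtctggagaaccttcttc

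The Pax7 stretch held 3 E-boxes and the other stretches 1 each, and the Eya1 E-box was of the CAGCTG form. Among all windows of this length centred the same way, 69.7% of Shh-/- and 70.8% of Shh-/-;Gli3-/- windows held CANNTG, and 16.4% and 15.1% held CAGCTG, which is itself a form of CANNTG. Neither TCAGGTT, a MEF3 site bound by Six4-family proteins, nor TGGGTGGTC, a GLI site, was found on either strand of the 4 stretches, and these letters were in 3.83% and 0.225% of Shh-/-;Gli3-/- windows. The Lbx1 stretch stood apart in base composition, with a GC content of 77.0% against 47.7% to 50.3% in the others.

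In WT buds, peaks lay beside only Six4 and Eya1 of the 9 members. No WT peak was within 20 kb of Pax3 or Lbx1, the defining markers of migrating precursors, nor of Pax7, Met, Myf5, Myf6 or Myod1. Both Six4 and Eya1 had a WT promoter peak, meaning a peak between 2 kb upstream and 1 kb downstream of a transcript start. These 2 of 9 members compare with 44.3% of all protein-coding genes. Any WT peak within 20 kb was found for the same 2 members and for 62.4% of all genes. The defining genes of the named cell type thus had no peak in the WT list, and the label rests on the known roles of the members. Which cells of the bud carried the Six4 and Eya1 peaks cannot be told from whole-bud lists.

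The mutant lists held more peaks beside the members. Most were narrow in every list, with 5 of 6 WT, 10 of 12 Shh-/- and 10 of 16 Shh-/-;Gli3-/- peaks at most 250 bp wide. Narrow peaks were common in the whole lists too, whose median widths were 250 bp in WT, 250 bp in Shh-/- and 300 bp in Shh-/-;Gli3-/-. In the Shh-/- list, 7 of 9 members had a peak within 20 kb (65.5% of all genes), but a promoter peak was still found only for Six4 and Eya1 (48.3% of all genes). In the Shh-/-;Gli3-/- list, 6 of 9 members had a peak (64.5% of all genes) and 4 a promoter peak, Lbx1 and Met in addition to Six4 and Eya1 (46.3% of all genes). At an FDR below 0.05, which the study states for its called peaks, members with a promoter peak numbered 1, 2 and 3 in WT, Shh-/- and Shh-/-;Gli3-/-. In WT, peaks covered 2.5 kb of the windows, as against 4.3 kb for the Shh-/- list and 7.15 kb for Shh-/-;Gli3-/-. This is 1.72 and 2.86 times the WT length, while the covered lengths of the whole lists were 1.25 and 1.66 times that of WT. All of the WT length lay in the Six4 and Eya1 windows, and outside them 1050 bp were covered in Shh-/- and 1500 bp in Shh-/-;Gli3-/-. Eya1 alone went from 0.6 kb in WT to 2.8 kb in Shh-/-;Gli3-/-. The lengths include promoter peaks of a neighbouring gene in the Six4 window. As a share, 0.314%, 0.541% and 0.899% of the members' windows were covered, against 0.666%, 0.811% and 1.01% of the windows of all genes built alike.

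**Figure D1:**
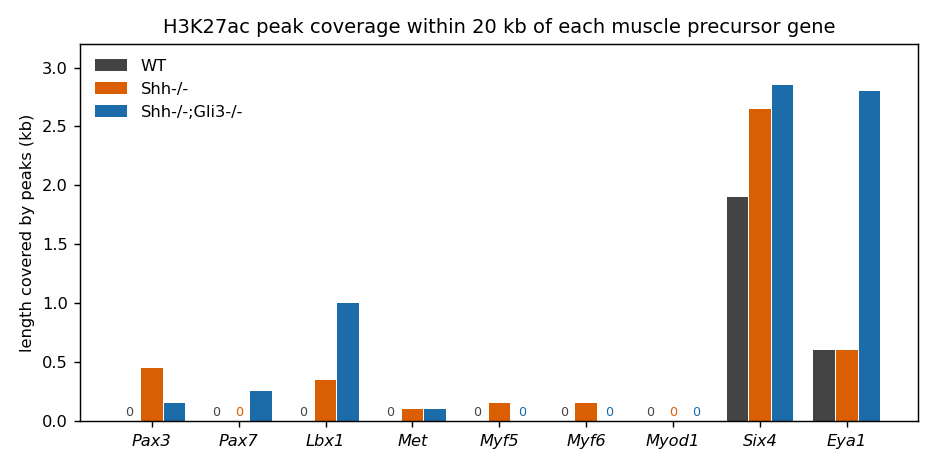
Bars give the length in kb covered by H3K27ac peaks within the span and 20 kb on each side of each member in the WT, Shh-/- and Shh-/-;Gli3-/- lists, and a written 0 marks no peak. Six4 held 1.9 kb or more in each list, Eya1 had 2.8 kb in the Shh-/-;Gli3-/- list, and 7 members had no WT peak. The Myf5 and Myf6 bars of the Shh-/- list are 1 shared peak.

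Six4, a homeobox factor that acts with EYA proteins upstream of Pax3, had the widest promoter peak of the group (gene at chr12:73099609-73113456, minus strand). The peak was 1750 bp wide in WT (chr12:73111600-73113349), 2350 bp in Shh-/- (chr12:73110950-73113299) and 2400 bp in Shh-/-;Gli3-/- (chr12:73111000-73113399). It covered an exon with its UTR and bases beyond it. The deposited log2 folds over each genotype's own input were 4.39, 4.91 and 4.84. Among genes with a promoter peak, 89.8%, 95.8% and 93.6% had a smaller summed promoter width in that list, so the peak ranked high in every genotype. The Six4 window also held the promoter peaks of Mnat1, a neighbouring gene for a subunit of the CDK-activating kinase, more than 10 kb upstream of Six4, with 1 peak of 150 bp in WT, 1 of 300 bp in Shh-/- and 2 of 300 and 150 bp in Shh-/-;Gli3-/-. No other peak lay in the window.

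Eya1, a phosphatase and transcriptional partner of Six4-family proteins, differed most in peak length between WT and the double mutant (gene at chr1:14168954-14310235, minus strand). Its window held 4 WT peaks covering 0.6 kb, 3 Shh-/- peaks covering 0.6 kb and 6 Shh-/-;Gli3-/- peaks covering 2.8 kb. The double mutant length was 4.67 times that of WT, and 97.1% of the 13643 genes with a WT peak had a smaller ratio (median 1.28). The Shh-/- ratio of 1.0 was below the median of 1.15, with 31.3% of these genes lower.

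At the Eya1 promoter, the WT list had 1 peak of 150 bp over an exon at the start (chr1:14310100-14310249, FDR 0.106). The Shh-/- list had a peak of 200 bp in an exon and another of 250 bp in an intron, with FDRs of 0.0265 and 0.0138. The Shh-/-;Gli3-/- list had a single peak of 950 bp (chr1:14309350-14310299, log2 fold 3.29, FDR 0.000889). In WT, the Eya1 promoter thus belonged to the narrowest, with 3.24% of genes with a promoter peak having a smaller summed width, and in the double mutant it stood at the middle, with 49.6% smaller.

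A second Eya1 region lay in an intron about 118 kb downstream of the nearest annotated start, and its bases are printed above. WT had 3 peaks there, of 100, 250 and 100 bp, of which only the middle one had a low FDR (0.00404, against 0.298 and 0.211). Shh-/- had 1 peak of 150 bp (FDR 0.0588). In Shh-/-;Gli3-/-, 1 peak of 950 bp spanned all of them (chr1:14185300-14186249, log2 fold 4.25, FDR 0.000233), a fold above 89.2% of its list. Next to it, this list alone held peaks of 400 bp (chr1:14184600-14184999, log2 fold 3.3) and 200 bp, both reaching over an exon. It also held lone peaks of 150 bp in introns 59.6 kb downstream and 2.53 kb upstream of the nearest start.

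**Figure D2:**
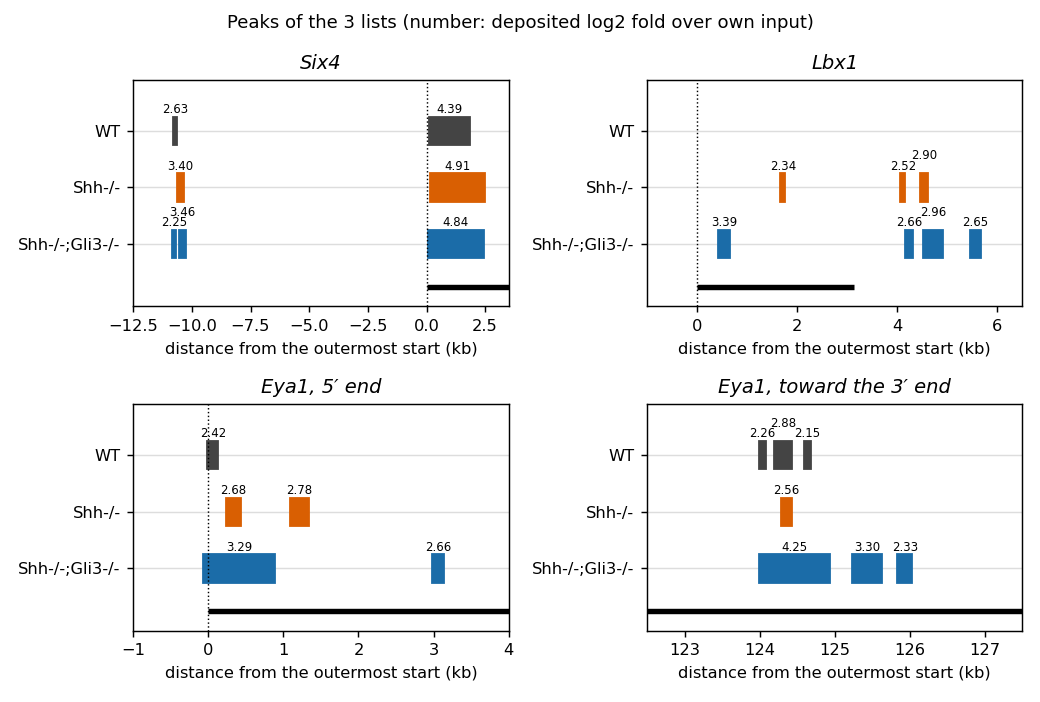
Boxes are peaks of the WT, Shh-/- and Shh-/-;Gli3-/- lists, drawn to scale against distance in kb from the outermost annotated start in the direction of transcription, with the deposited log2 fold above each, for Six4, Lbx1 and both ends of Eya1. The black bar is the gene and the dotted line its start. The Six4 promoter peak was wide in each list, the Lbx1 row of WT is empty, and the Eya1 peaks were 950 bp wide at both sites only in the double mutant; the boxes left of Six4 are the Mnat1 promoter.

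Lbx1, the homeobox gene required for migration of the precursors into the limb, had no WT peak (gene at chr19:45232684-45235812, minus strand), and the nearest WT peak was 34.6 kb from its start. Shh-/- had 3 peaks covering 0.35 kb, 2 downstream of the gene (150 bp with log2 fold 2.9 and FDR 0.00508, and 100 bp with FDR 0.0636) and 1 over an exon (100 bp, FDR 0.154). Shh-/-;Gli3-/- had 4 peaks covering 1.0 kb. The widest was 400 bp, 1385 bp past the 3′ end (chr19:45230900-45231299, log2 fold 2.96, FDR 0.000994), and the one with the highest fold was the promoter peak of 250 bp in an exon (chr19:45235150-45235399, log2 fold 3.39, FDR 0.000889). The wider downstream Shh-/- peak overlapped the 400 bp double mutant peak, while the other adjoined a double mutant peak of 150 bp without sharing a base with it. Apart from a stretch at the Mnat1 promoter, the overlapped Lbx1 region was the only one beside a member that both mutant lists held and WT lacked.

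Pax3, the paired-box gene that specifies the precursors, had no WT peak and no promoter peak in any list (gene at chr1:78101267-78197134, minus strand). The Shh-/- list held a pair of intron peaks, of 200 bp (chr1:78192850-78193049, log2 fold 2.82, FDR 0.00954) and 250 bp (chr1:78193200-78193449, log2 fold 2.75, FDR 0.0181), the nearer one 3.39 kb from a start. The Shh-/-;Gli3-/- list lacked them and held 1 peak of 150 bp on the far side of the gene, 19468 bp past its 3′ end and barely inside the window (chr1:78081650-78081799, log2 fold 2.3, FDR 0.0295). Thus Pax3 had peaks in both mutant lists, but at different positions.

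Met, the receptor that HGF activates on the precursors (gene at chr6:17463800-17573980, plus strand), also had 1 peak of 100 bp in each mutant list at different positions. The Shh-/- peak was intronic (chr6:17496750-17496849, log2 fold 2.31, FDR 0.159). The Shh-/-;Gli3-/- peak was at the promoter (chr6:17464150-17464249, log2 fold 2.01, FDR 0.104), and 1.04% of its list had a lower fold. Both had the lowest width in their lists and an FDR above 0.05.

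Pax7, the paralogue of Pax3 that marks later muscle progenitors (gene at chr4:139737062-139833528, minus strand), had 1 peak, in the Shh-/-;Gli3-/- list, in an intron 85.1 kb from the nearest start (250 bp, chr4:139747650-139747899, log2 fold 2.77, FDR 0.00126). Among the myogenic regulatory factors, Myf5 (chr10:107482908-107486134) and Myf6 (chr10:107492853-107494737), which are neighbours on the minus strand, shared 1 Shh-/- peak of 150 bp over a Myf5 exon (chr10:107484000-107484149, log2 fold 2.66, FDR 0.0329). It lay 1985 bp from the Myf5 start and 10.6 kb from that of Myf6, and the double mutant list had no peak there. Myod1, the determination factor that in the limb follows Myf5 (chr7:46376474-46379099, plus strand), had no peak in any list. Its nearest peak was 109 kb away in WT, and 174 and 263 kb away in Shh-/- and Shh-/-;Gli3-/-.

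**Figure D3:**
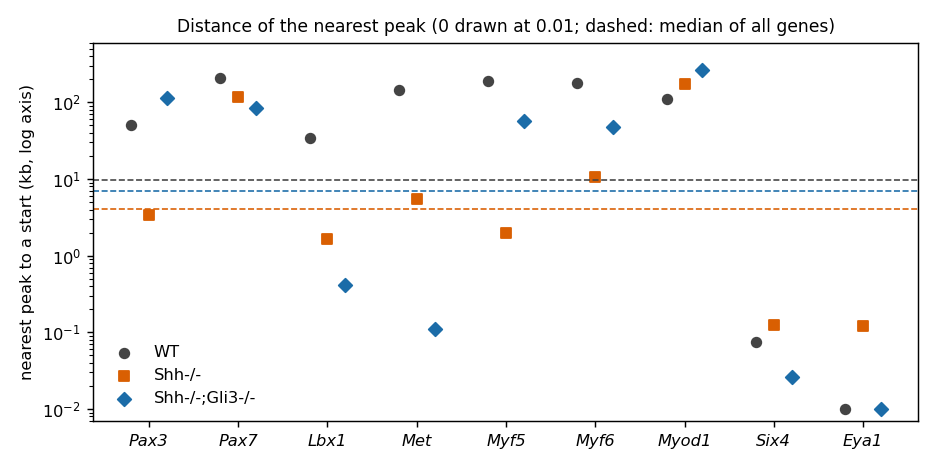
Points give, on a log axis in kb, the distance from each member's start to the nearest peak of the WT, Shh-/- and Shh-/-;Gli3-/- lists, with 0 drawn at 0.01, and dashed lines give the medians over all genes (9.72, 4.09 and 6.91 kb). The 7 members without a WT peak in their windows sit 34.6 kb or more from one in WT, and Myod1 is beyond 100 kb in each list.

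Whether acetylation of these genes was lost in a mutant was asked of the 6 WT peaks. All 6 were overlapped in Shh-/-;Gli3-/- (100%, Wilson 95% interval 61.0% to 100%), and 70.8% of all WT peaks were. In Shh-/-, 2 of 6 were overlapped (33.3%, 9.68% to 70.0%), against 63.4% of all WT peaks. The 4 others were the Mnat1 and Eya1 promoter peaks and the outer pair of the intronic Eya1 peaks, and each had a Shh-/- peak within 500 bp, so that all 6 were matched when such a gap was allowed. When peaks of the lists that share a base were joined, the windows held 23 regions. Of these, 3 were found in all lists, 2 in both mutants, 1 in WT and Shh-/-;Gli3-/-, 7 only in Shh-/-, 10 only in Shh-/-;Gli3-/- and none only in WT. No region of these genes was thus lost from both mutants, and with 7 members lacking any WT peak, loss could not have been seen for them.

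Peaks in a mutant list beside a gene without any in WT were counted for the members and for all genes. Of the 7 members without one, 5 had a Shh-/- peak (Pax3, Lbx1, Met, Myf5 and Myf6) and 4 a Shh-/-;Gli3-/- peak (Pax3, Pax7, Lbx1 and Met). Over all genes the shares were 16.9% and 14.3% of 8208. A promoter peak in Shh-/-;Gli3-/- without one in WT was found for 2 of 7 members (Lbx1 and Met) and 6.78% of 12176 genes. The 5 members in Shh-/- rest on 7 peaks, since Myf5 and Myf6 share 1, and on a single list.

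Several properties of the lists and the genes moved with these counts, and their part in them was not tested. Long genes have wide windows: among genes without a WT peak and with windows of 130 to 190 kb, as those of Pax3, Pax7 and Met, 33.6% had a Shh-/- and 34.9% a Shh-/-;Gli3-/- peak, and 2 and all 3 of these members did. For windows up to 60 kb, as those of Lbx1, Myf5, Myf6 and Myod1, the shares were 12.3% and 9.68%, and 3 and 1 of the 4 members had one. Among promoters that are not CpG-dense (an observed over expected CpG ratio under 0.6 or a GC content under 50%), which leaves out Lbx1 alone of the 9 members, the shares were 16.1% in Shh-/- and 13.6% in Shh-/-;Gli3-/-, with 4 and 3 of 6 members. Among CpG-dense promoters, as that of Lbx1, the shares were higher, 35.5% and 28.7% of 355 genes, and Lbx1 had a peak in both lists. When each mutant list was shortened to its highest ranked peaks until it covered no more than the WT list, 1 of the 7 members kept a peak in each mutant, against 7.15% and 1.07% of genes, and 1 of 6 and 4 of 6 WT peaks of the windows were overlapped. With a log2 fold of at least 3 in every list, 8 members lacked a WT peak, and 0 of them had a Shh-/- and 2 a Shh-/-;Gli3-/- peak, against 20.3% and 14.9% of genes. The FDRs were uneven as well. An FDR below 0.05 was given to 3 of 6 WT, 8 of 12 Shh-/- and 15 of 16 Shh-/-;Gli3-/- peaks of the windows, against 60.8%, 72.4% and 83.4% of the lists.

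Lists of other genes, chosen like the members with earlier results of these data known, are set beside these values. All 12 limb mesenchyme genes, among them Lhx9, Tbx5, Meis1 and Meis2, which encode transcription factors of the limb field, had promoter peaks in each list, and their windows were covered over medians of 6.65, 9.15 and 9.43 kb in WT, Shh-/- and Shh-/-;Gli3-/-. The members' medians were 0.0, 0.15 and 0.15 kb. Genes of other minor cell types of the bud had few. Promoter peaks were found in WT, Shh-/- and Shh-/-;Gli3-/- for 2, 3 and 3 of 12 endothelial genes, 2, 3 and 2 of 12 neural crest and Schwann precursor genes, 0, 1 and 2 of 12 blood genes and 0, 1 and 0 of 12 ectoderm genes. Among 12 genes of distant tissues there were 0, 0 and 1. Genes without a WT peak were also counted by list for a peak in Shh-/- and in Shh-/-;Gli3-/-. The shares over all such genes were 16.9% and 14.3%, and the members stood at 5 and 4 of 7. There were 4 and 4 of 7 blood genes and 1 and 4 of 7 neural crest and Schwann precursor genes. Both of these lists thus equalled the members in Shh-/-;Gli3-/-. Lower counts were found for ectoderm genes (3 and 1 of 7) and endothelial genes (1 and 1 of 7). Among partner genes of the precursors there were 3 and 3 of 8, among muscle differentiation genes 1 and 2 of 8, and among genes of distant tissues 1 and 1 of 8, while no limb mesenchyme gene lacked a WT peak.

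**Figure D4:**
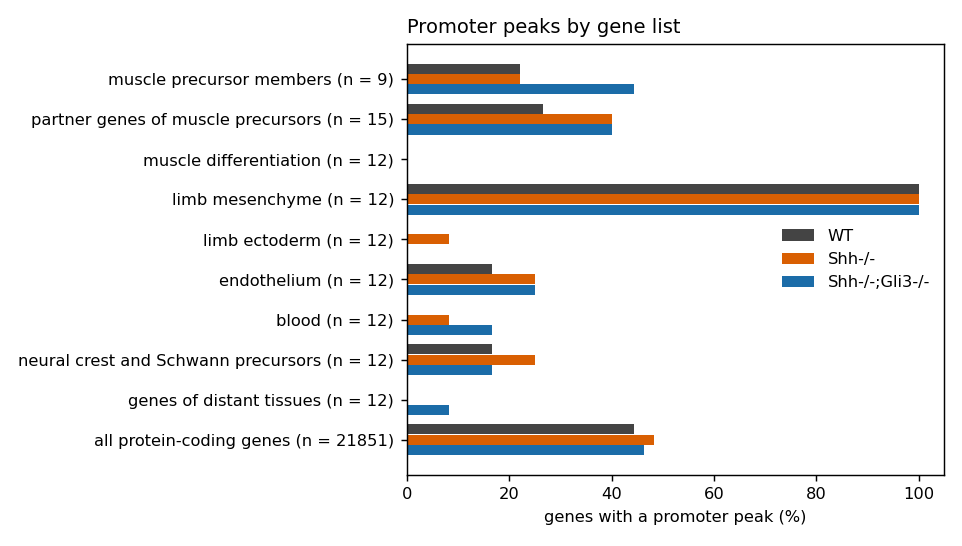
Bars give the percent of genes with a promoter peak in the WT, Shh-/- and Shh-/-;Gli3-/- lists for the members, 8 comparison lists and all protein-coding genes, with the number of genes in parentheses. All limb mesenchyme genes and no muscle differentiation gene had one in any genotype, and the members stood at 22.2% in WT and Shh-/- and 44.4% in the double mutant.

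Further genes of the precursors were sparsely marked too. Of 15 partner genes, 4 had a promoter peak in WT, 6 in Shh-/- and 6 in Shh-/-;Gli3-/-. Gab1, the adaptor through which MET signals, and Eya4, another EYA family member, had promoter peaks in all lists, with summed widths of 1150, 1400 and 1300 bp for Gab1 and 1450, 1350 and 900 bp for Eya4. Hgf, the MET ligand made by limb mesenchyme, had promoter peaks of 250, 1000 and 350 bp in summed width. Meox2, a homeobox gene of limb muscle precursors, had 100 bp in WT, none in Shh-/- and 1200 bp in Shh-/-;Gli3-/-. Cxcr4, a chemokine receptor of the migrating cells, and Msc and Tcf21 had no peak in any list. None of 12 muscle differentiation genes, among them Myog and the structural genes Actc1, Myh3 and Ttn, had a promoter peak in any list.

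By promoter pattern, Pax3, Pax7, Myf5, Myf6 and Myod1 were among 10673 genes (48.8% of all) without a promoter peak in any list. Six4 and Eya1 shared theirs with 9108 genes (41.7%) that had one in every list, and Lbx1 and Met were among 268 genes (1.23%) with one only in Shh-/-;Gli3-/-.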

How the data were processed

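H3K27ac MicroChIP-seq libraries of forelimb buds of 3 genotypes were aligned and their peaks called by the authors, with Bowtie2 2.2.5 and build mm10 per the submitters' processing notes and CisGenome per the study's methods. The study describes its called peaks as drawn from 2 replicates of each genotype, whereas the labels attach each list to 1 replicate. How replicates were combined is not given in the sources used here. The study also states an FDR below 0.05 for its called peaks. The lists used here go beyond that level, and all their peaks were counted unless stated otherwise. The deposited lists give widths in steps of 50 bp, a score (the largest caller statistic, lowest value 3.0), a log2 fold over the input of that genotype, a −log10 p-value that stops at 100 and a false discovery rate (FDR, a q-value) that reached 0.35 in WT, 0.186 in Shh-/- and 0.109 in Shh-/-;Gli3-/-. Library depth is unknown from these lists, and the input libraries were not used separately. Folds of different lists are relative to different inputs and are given side by side only.

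Windows, promoters and exons were taken from GENCODE M21 and peaks sharing 1 bp or more were counted as overlapping (Python 3.11.15, pandas 2.3.3, numpy 2.4.6). Positions were treated as counted from 1, which the lists do not state. Wilson intervals cover counting error only, and no p-values were computed, since peaks are not replicates. CpG-dense promoters had an observed over expected CpG ratio of at least 0.6 and a GC content of at least 50% over 3001 bp. Overlap counts were tested on simulated peaks. Sequences were read from the RefSeq copy of GRCm38. The members and gene lists were chosen with earlier results of these data known. All 9 members are named with their promoter peaks, the distal peak of highest fold and the widest; from other lists at most 4 genes with the longest promoter coverage and those with no peak. The alternatives were stricter peaks (log2 fold of 3 or more, or FDR below 0.05), lists shortened to the same number of peaks or the same covered length, other windows and other overlaps. The bands of window length were set after the values were seen. Some genes of the comparison lists are counted but not reported by name here.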

Additional observations from a re-analysis of the deposited data

How the results depend on the processing

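Reversals of direction were not scored among the 82 values recomputed under the alternatives. Members without a WT peak had a Shh-/- peak more often than genes (5 of 7, 16.9%). At a log2 fold of at least 3 they did so less often (0 of 8, 20.3%). Of the 82 values, 21 moved, and 61 stayed within 1.5 times the reported count or length, or within the Wilson interval of the reported share. With 6 WT peaks that interval is wide: at equal covered length the overlapped share was 16.7% in Shh-/- and 66.7% in Shh-/-;Gli3-/-, and with equal numbers of peaks 33.3% and 83.3%. The study states an FDR below 0.05 for its called peaks, which the WT Eya1 and Shh-/-;Gli3-/- Met promoter peaks do not meet. With an FDR below 0.05, the number of members with a promoter peak was 1 in WT, 2 in Shh-/- and 3 in Shh-/-;Gli3-/-. With a log2 fold of at least 3 it was 1 in WT and 1 in Shh-/-, the covered length in Shh-/- was 2.65 kb, and the only WT peak left was overlapped in Shh-/- (100%). With lists shortened to equal covered length, members with a promoter peak numbered 1 in Shh-/- and 2 in Shh-/-;Gli3-/-, and 2.8 and 3.9 kb were covered, still above the 2.5 kb of WT. Promoter windows of 5 kb on each side gave 5 members in Shh-/-, by construction. They take in the intron peaks of Pax3, the exon peak of Myf5, and the exon and downstream peaks of Lbx1. With a gap of up to 500 bp, 100% of the WT peaks had a Shh-/- peak. Where no construction is named, the cause was not tested.

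Counts of members with any peak were added after seeing the data. Of the 7 members without a WT peak, the number with a Shh-/- peak went from 5 to 4 with an FDR below 0.05 (19.1% of such genes) and 4 with equal numbers of peaks (12.8%), and the number with a Shh-/-;Gli3-/- peak from 4 to 3 (19.8%) and 2 (9.71%). No paired analysis was possible because a genotype is represented by a single list, with no replicate columns, and no replicate could be left out for the same reason. Embryo, immunoprecipitation and genotype cannot be told apart in single lists, and an absent peak says only that none was called.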
